A study of Mus musculus with 8 samples.

Results

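The 9 genes described here carry out or control antigen presentation by major histocompatibility complex (MHC) class II in mouse thymic epithelial cells (TECs). They are *H2-Aa*, *H2-Ab1*, *H2-Eb1*, *H2-DMa*, *H2-DMb1*, *H2-Oa*, *Cd74*, *Ciita* and *Cd83*, and they were chosen by symbol out of 56923 genes counted in 8 libraries. Of the 14504 genes with enough reads to be tested, 8 were members, and *H2-Oa* was the member that was not. The question asked of them was how far each returned towards its *in vivo* level in organoids, and whether *Ciita* followed its targets.

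The 8 libraries were 3′ mRNA libraries of wild-type mouse TECs from embryonic thymus of the C57BL/6J strain, with 2 libraries in each of 4 groups. *In vivo* TECs went into lysis straight from the sorter. 2D TECs were grown as a confluent layer on laminin-coated plastic and collected after 3 days. Organoids were grown in Matrigel and collected at day 3 (D3) or day 7 (D7), so that D7 organoids and 2D TECs differ in time as well as in format. The 2D and organoid cultures were kept in a medium that held FGF7, and the organoid medium also held thiazovivin for the first 2 days. The part of these factors in the results was not tested. TECs from E16.5 embryos were sorted as EpCAM-positive cells with a panel of antibodies that included 1 against MHC class II, and whether that stain took part in the gate is not stated in the sources used here. The labels mark the 2 libraries of a group as biological replicates. In the fold-change tests below, the spread within such pairs is pooled over the groups and drawn towards that of other genes. The exact permutation tests instead reassign the 8 libraries to the groups.

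MHC class II molecules are pairs of an alpha and a beta chain that display peptides from endosomes to CD4 T cells. In the thymus, TECs use them to select developing CD4 T cells. The chains assemble with the invariant chain, DM exchanges the invariant-chain fragment for peptide, and DO restrains DM. Transcription depends on CIITA, a coactivator that binds no DNA itself and is recruited by RFX, NF-Y and CREB proteins sitting on the X and Y boxes in front of class II genes.

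The 6 members named *H2* lie on chromosome 17 of GRCm39, from *H2-Oa*, which starts at 34311314, to *H2-Eb1*, which ends at 34535648. *Ciita* is on chromosome 16 and *Cd83* on chromosome 13. The 100 bases before the annotated start of 4 of these genes are printed. Those of *H2-Ab1*, *H2-Eb1* and *H2-DMa* show matches to short cores of both boxes of the module through which CIITA acts. Those of *H2-Aa* match the Y core alone. Only these core strings were searched, so a window without a match may still hold the box. They are given 5′ to 3′ on the strand of the gene, with matches to the X1 core ACNGATG and the Y core ATTGG in capitals where they lie on that strand. *H2-Ab1* is at chr17:34482083-34482182 (plus strand), *H2-Eb1* at chr17:34524713-34524812 (plus strand), *H2-DMa* at chr17:34354460-34354559 (plus strand) and *H2-Aa* at chr17:34506798-34506897 (minus strand).
H2-Ab1: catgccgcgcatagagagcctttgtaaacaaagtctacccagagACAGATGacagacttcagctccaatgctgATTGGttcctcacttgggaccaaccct
H2-Eb1: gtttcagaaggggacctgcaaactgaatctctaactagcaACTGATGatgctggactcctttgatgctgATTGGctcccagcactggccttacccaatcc
H2-DMa: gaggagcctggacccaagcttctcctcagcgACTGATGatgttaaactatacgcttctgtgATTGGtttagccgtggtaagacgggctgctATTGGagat
H2-Aa: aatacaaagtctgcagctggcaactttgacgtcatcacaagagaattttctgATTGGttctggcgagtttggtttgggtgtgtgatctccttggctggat

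*H2-Ab1*, *H2-Eb1* and *H2-DMa* held both cores in the same order, with 22 bases between them in *H2-Ab1* and *H2-Eb1* and 23 in *H2-DMa*, which held another Y core near its start. Searched over 250 bases and both strands, 7.21% of 21770 promoters held the X1 core and 36.5% held the Y core. An X1 core followed by a Y core on the gene strand, 10 to 30 bases later, was found in 20 of these promoters (0.092%). *H2-DMb2* and *H2-Eb2*, class II genes that are not among the 9, held the pair as well. *H2-Aa* held the Y core at position -48 and an X1 core only at -232 on the other strand, *H2-Oa* held an X1 core at -98 and no Y core, and *H2-DMb1*, *Ciita* and *Cd83* held neither. The window before *Cd74* is not reported here.

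**Figure D1:**
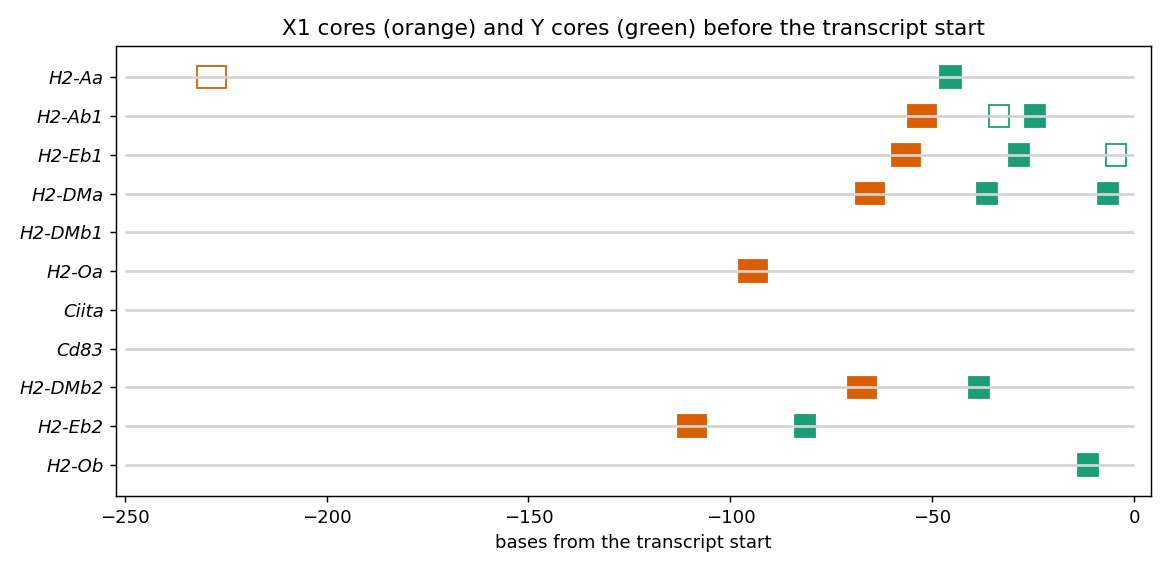
X1 cores (orange) and Y cores (green) in the 250 bases before the annotated transcript start of each gene (vertical axis), by distance from that start in bases (horizontal axis). Filled boxes lie on the strand of the gene and open boxes on the other, and the paired orange and green boxes of *H2-Ab1*, *H2-Eb1*, *H2-DMa*, *H2-DMb2* and *H2-Eb2* have a like spacing.

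The libraries held between 5084715 and 7612532 counts. Levels are given as CPM, which are counts divided by the TMM-scaled library size, with SD over n = 2 libraries, and since reads come from the 3′ end of each RNA, levels are compared between groups for 1 gene and not between genes. The epithelial markers *Epcam* and *Cdh1* had group means of 198 CPM or more in all 4 groups, but most listed TEC markers changed. Of the 10, 8 were higher *in vivo* than in D3 organoids (14% of all tested genes) and 1 was lower (2052 of 14504 genes). Over D7 organoids it was likewise 8 higher (16.8%) and 1 lower (2606 of 14504). Over 2D it was 6 higher (21.7%) and 4 lower (2885 of 14504). *Krt18* averaged 1741 CPM *in vivo*, 3368 in 2D, 258 at D3 and 489 at D7. Transcripts of blood cells were highest *in vivo*: the 18 listed markers of blood cells that can carry class II summed to 64.4 and 129 CPM there against 1.67 to 14.0 CPM in the 6 culture libraries, and the 12 thymocyte markers to 268 and 615 CPM against 2.54 to 9.26 CPM. Of the 18, 8 were at 0 in both *in vivo* libraries, *Itgax*, *Flt3*, *Clec9a* and *Cd79a* among them, while *Zbtb46*, *Cd79b* and *Ms4a1* had means of 0.893, 1.43 and 0.281 CPM there, and *Ptprc*, which thymocytes share, had 68.6 CPM. Of the 9 members, 5 were higher in *in vivo* replicate 1, the library with the larger blood sum, and 4 in replicate 2. The part of these cells in the results was not tested. In such bulk libraries, fewer class II-positive cells and less class II RNA in each cell cannot be told apart.

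The class II genes as a group were far lower in every culture than *in vivo*, and they were partly restored in D7 organoids. Summed over the 9 members, the libraries held 1943 and 1972 CPM *in vivo*, 45.9 and 52.2 CPM in 2D, 95.4 and 103 CPM in D3 organoids, and 308 and 367 CPM in D7 organoids. The 4 groups did not overlap, and their order was *in vivo*, D7, D3 and 2D.

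**Figure D2:**
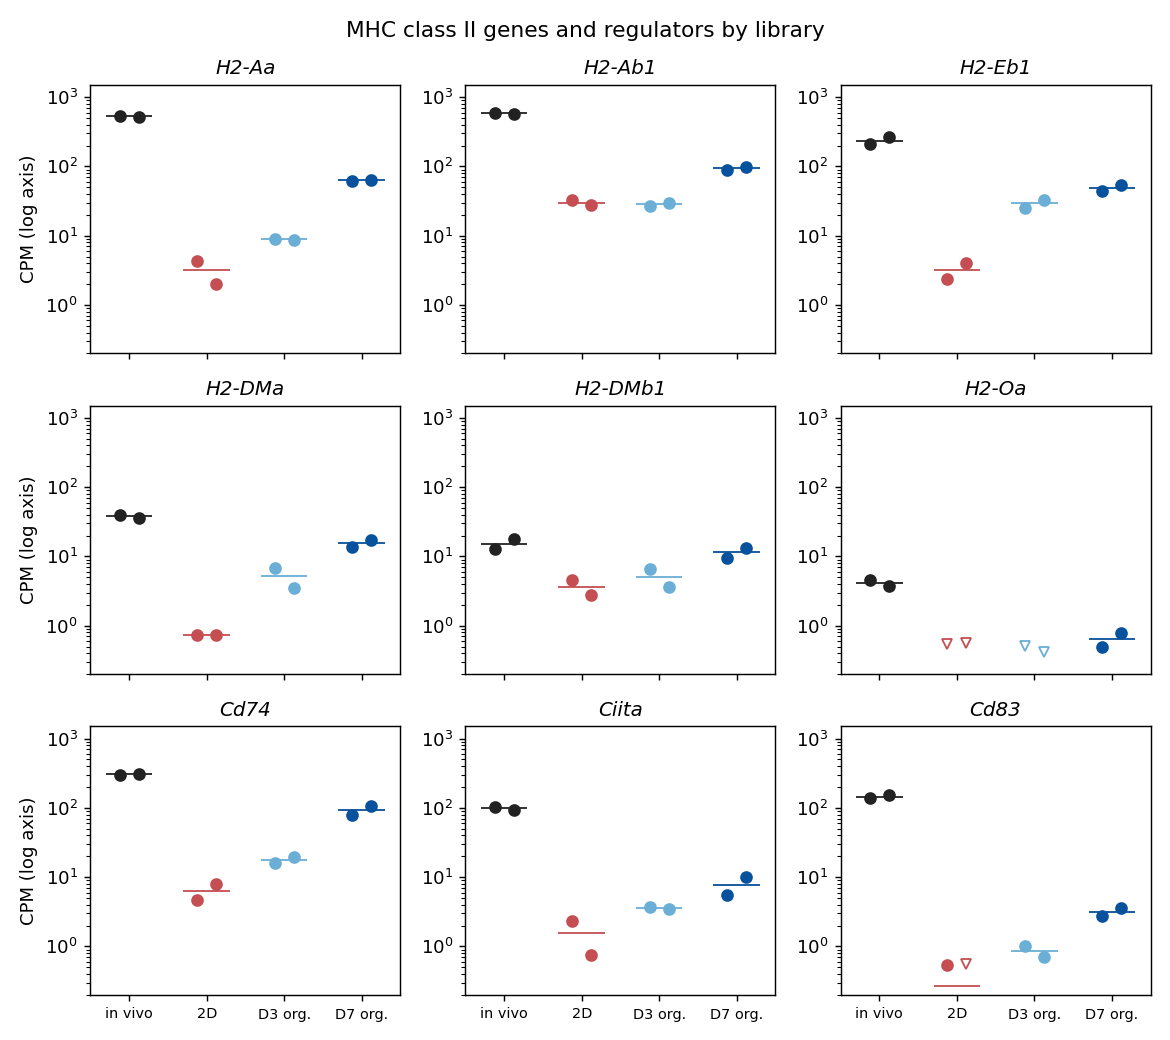
CPM on a log axis for each of the 9 genes in the 8 libraries, by group. Points are libraries, horizontal lines are group means, and open triangles mark libraries with 0 counts, drawn at the level of 3 counts in that library. For every gene but *H2-Oa*, whose D3 libraries had 0 counts, both D7 points lie above both D3 points. The share of all tested genes separated in this way is not given here.

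The classical class II chains are given first. *H2-Aa*, the alpha chain of the I-A molecule, was at 539 and 512 CPM *in vivo*, 4.35 and 2.04 in 2D, 8.93 and 8.78 in D3 organoids, and 62.3 and 64.4 in D7 organoids. All 4 groups were apart from each other, and the D7 mean was 12.1% of the *in vivo* mean. *H2-Aa* was higher *in vivo* than in 2D by 7.35 on the log2 scale (SE 0.25, adjusted p = 1.24e-12, from the quasi-likelihood test of edgeR, adjusted by Benjamini and Hochberg's method over all tested genes), a 163-fold difference. It rose from D3 to D7 by 2.84 on the log2 scale (SE 0.21, adjusted p = 1.47e-07, same edgeR test), the largest among the 8 tested members between these days.

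*H2-Ab1*, the beta chain partner of *H2-Aa*, kept a higher floor in culture. It was at 599 and 580 CPM *in vivo*, 32.6 and 27.6 in 2D, 26.8 and 29.8 in D3 organoids, and 89.9 and 97.3 in D7 organoids. The 2D and D3 libraries overlapped, with a D3 over 2D difference of -0.09 on the log2 scale (95% interval -0.45 to 0.27, adjusted p = 0.723 by edgeR). The 2 chains of the same dimer were thus left at unlike shares of their *in vivo* level in 2D, 0.608% for *H2-Aa* and 5.11% for *H2-Ab1*, and at 12.1% and 15.9% in D7 organoids. The intervals of their *in vivo* over 2D differences, 6.82 to 7.88 and 3.92 to 4.66, did not meet.

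*H2-Eb1*, the beta chain of I-E, was at 210 and 262 CPM *in vivo*, 2.36 and 4.07 in 2D, 25.3 and 33.3 in D3 organoids, and 43.8 and 53.8 in D7 organoids. D3 organoids were above 2D TECs, a separate culture, by 3.19 on the log2 scale (SE 0.29, adjusted p = 1.35e-07 by edgeR), and D7 organoids were above D3 organoids by 0.73 (SE 0.21, adjusted p = 0.0217). The D7 over D3 difference did not pass without D3 replicate 1 (0.54, adjusted p = 0.179) or without D7 replicate 2 (0.58, adjusted p = 0.185). Its alpha chain partner *H2-Ea* had 0 counts in all 8 libraries, and mice of the b haplotype, such as C57BL/6, are known to carry a deletion that silences this gene. *H2-Aa* and *H2-Eb1* share 118 exonic bases on opposite strands in the annotation, and the strand setting of the counts is not stated.

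The invariant chain gene *Cd74*, which guides class II dimers to endosomes, was at 296 and 313 CPM *in vivo*, 4.71 and 7.96 in 2D, 16.2 and 19.4 in D3 organoids, and 79.8 and 106 in D7 organoids. Each group stood apart from the others, and the rise from D3 to D7 was 2.38 on the log2 scale (SE 0.21, adjusted p = 1.2e-06 by edgeR). At D7 *Cd74* had reached 30.5% of its *in vivo* mean, and it remained lower than *in vivo* by a log2 difference of 1.72 (SE 0.19, adjusted p = 2.83e-06).

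Among the members, *H2-DMa* and *H2-DMb1*, chains of the peptide exchange factor DM, came nearest to their *in vivo* levels by D7. *H2-DMa* was at 39.9 and 35.6 CPM *in vivo*, 0.725 and 0.741 in 2D, 6.91 and 3.48 in D3 organoids, and 13.5 and 17.3 in D7 organoids, which is 40.8% of the *in vivo* mean at D7. It shares 510 exonic bases with *Brd2* on the opposite strand, whose reads cannot be told apart without strand. Its D3 to D7 rise of 1.58 (SE 0.34, adjusted p = 0.00328 by edgeR) became 1.08 with an adjusted p of 0.0648 without D3 replicate 2. *H2-DMb1* was at 12.7 and 18 CPM *in vivo*, 4.53 and 2.78 in 2D, 6.57 and 3.62 in D3 organoids, and 9.65 and 13.4 in D7 organoids. It was the member whose *in vivo* and D7 libraries overlapped, with a difference of 0.43 (95% interval -0.39 to 1.24, adjusted p = 0.429 by edgeR), an interval that runs from a higher to a clearly lower D7 level. Its *in vivo* level passed over D3 (1.60, adjusted p = 0.00695) but not without *in vivo* replicate 2 (1.31, adjusted p = 0.0575) or D3 replicate 2 (1.16, adjusted p = 0.104). Its D7 over 2D difference (1.64, adjusted p = 0.00547) likewise did not pass without 2D replicate 2 (1.32, adjusted p = 0.0628) or D7 replicate 2 (1.40, adjusted p = 0.0534).

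*H2-DMb2*, a second DM beta gene outside the 9, did not share this course. It had 137 and 128 counts *in vivo*, 0 and 2 in 2D, 0 and 0 in D3 organoids, and 0 and 3 in D7 organoids. The ratio of *in vivo* to D7 was 90.3 (counting interval 30.6 to 441, which covers counting error only), where *H2-DMb1* differed by 1.34-fold. Neither *H2-DMb1* nor any other member shared a 50-base word in the last 500 bases of its transcripts with another gene.

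*H2-Oa*, the alpha chain of the DM inhibitor DO, was found with 26 and 27 counts *in vivo*, 0 in all 4 libraries of 2D TECs and D3 organoids, and 4 in each D7 library. Against a floor of 3 counts per library, it was at least 7.56-fold higher *in vivo* than in 2D and at least 9-fold higher than in D3 organoids. The D7 libraries, at 0.495 and 0.788 CPM, were at 15.4% of the *in vivo* mean and 1 count above that floor. Its partner *H2-Ob* stayed at 4 counts or fewer in each library, so no fold is given. *H2-Eb2*, another class II beta gene, had 36 and 61 counts *in vivo* and at most 3 in any culture library.

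*Ciita*, the master regulator, was at 104 and 93.9 CPM *in vivo*, 2.36 and 0.741 in 2D, 3.71 and 3.48 in D3 organoids, and 5.57 and 10.05 in D7 organoids. The culture levels rest on few reads, namely 13 and 4 counts in 2D, 22 and 25 at D3, and 45 and 51 at D7. *Ciita* was higher *in vivo* than in D7 organoids by 3.71 on the log2 scale (SE 0.30, adjusted p = 6.55e-08 by edgeR), and the D7 mean was 7.87% of the *in vivo* mean. It was higher in D7 organoids than in 2D by 2.27 (SE 0.44, adjusted p = 0.000433), while D3 over 2D did not pass (1.19, SE 0.48, adjusted p = 0.0594). That last difference passed without 2D replicate 1 (2.24, adjusted p = 0.0202) and without D7 replicate 1 or 2 (1.19, adjusted p = 0.0438 and 0.0437).

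The rise of *Ciita* from D3 to D7 was close to the threshold. It measured 1.07 on the log2 scale (SE 0.36, 95% interval 0.30 to 1.84, adjusted p = 0.0456 by edgeR), with both D7 libraries above both D3 libraries. The call was lost with limma-voom, the test the authors used (0.95, adjusted p = 0.173), and under 3 other ways of scaling or counting. It was also lost without *in vivo* replicate 1 (adjusted p = 0.0505) or 2 (0.0540), D3 replicate 1 (0.146) or 2 (0.203), or D7 replicate 2 (0.64, adjusted p = 0.412). The annotation places 633 exonic bases of *Ciita* opposite *Dexi*, and those reads cannot be told apart without strand.

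*Cd83* encodes a membrane protein that protects class II from the ubiquitin ligase MARCH8, and CD83 in TECs is known to be needed for CD4 T cell selection. It was at 138 and 154 CPM *in vivo*, 0.544 and 0 in 2D, 1.01 and 0.697 in D3 organoids, and 2.72 and 3.55 in D7 organoids. The ratio of *in vivo* to 2D was 534 (counting interval 182 to 2590), resting on 3 counts in 2D. At D7 *Cd83* was at 2.15% of its *in vivo* mean, the lowest share among the 9 members, and differed from *in vivo* by 5.56 on the log2 scale (SE 0.30, adjusted p = 4.05e-10 by edgeR). Its D3 to D7 rise of 1.84 (SE 0.48, adjusted p = 0.0120) did not pass without D3 replicate 2 (1.52, adjusted p = 0.117) or D7 replicate 2 (1.68, adjusted p = 0.0781), and without 2D replicate 1 the D3 over 2D difference, fitted against 0 counts, passed (adjusted p = 0.0277).

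Counted over the members, 8 of the 8 tested were higher *in vivo* than in 2D (21.7% of all tested genes were higher). Over D3 organoids it was 8 of 8 (14% of all genes higher), and over D7 organoids 7 of 8 (16.8%). The members' median difference was 5.81, 4.24 and 2.47 on the log2 scale in these 3 comparisons, against 0.06, 0.01 and -0.01 over all tested genes, and with *H2-Oa* set to its lower bound it was 5.65 over 2D and 4.09 over D3. Higher *in vivo* than in all 3 cultures were 7 members, as were 5.56% of tested genes. These comparisons share the *in vivo* libraries, in which the blood and thymocyte sums given above were highest.

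Between cultures, 4 of 8 members were higher in D3 organoids than in 2D (19.3% of all genes), namely *H2-Aa*, *H2-Eb1*, *H2-DMa* and *Cd74*. In D7 organoids 8 of 8 were higher than in 2D (24.4%), and 7 of 8 were higher than in D3 organoids (10.9%), with *H2-DMb1* the exception (1.18, SE 0.41, adjusted p = 0.0531 by edgeR). The count of 7 fell to 4 without D3 replicate 2 and to 4 without D7 replicate 2. Some markers of other cells rose over the same days. The 7 mesenchyme markers summed to 17.8 and 21.7 CPM at D3 and to 70.3 and 79.3 CPM at D7, with 3 of 5 tested called higher. *Dcn*, a mesenchymal proteoglycan, averaged 5.21 and 52.1 CPM, *Lum* 2.21 and 11.2 CPM, and *Col3a1* 0.279 and 3.21 CPM. By contrast *Col1a2* went from 11.1 to 6.32 CPM. Low on both days were *Col1a1* (0.923 and 1.33 CPM), *Pdgfra* (0.0842 and 0.531 CPM) and *Pdgfrb* (0 and 0.124 CPM). The blood list summed to 1.67 and 2.53 CPM at D3 and to 14.0 CPM in both D7 libraries, most of it *Lyz2* (0.168 and 11.2 CPM on average), a lysozyme of myeloid cells. *Itgax*, *Flt3*, *Clec9a*, *Cd79a*, *Ms4a1*, *Csf1r* and *Adgre1* were at 0 in all 4 organoid libraries. *Itgam* and *Tyrobp* each averaged 0.0842 CPM at D3 and 0 at D7, and *Ptprc* 0.641 and 0.456 CPM. Slightly higher at D7 were *Cd68* (0.293 and 0.554 CPM), *Fcer1g* (0 and 0.321 CPM) and *Laptm5* (0.0697 and 0.357 CPM). *Zbtb46* averaged 0.0842 CPM at D3 and 0.543 CPM at D7, and *Cd79b* 0.590 and 0.470 CPM, all from few counts. The part of such cells in the rise was not tested. No member was called lower in any of the 6 comparisons in the direction given.

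**Figure D3:**
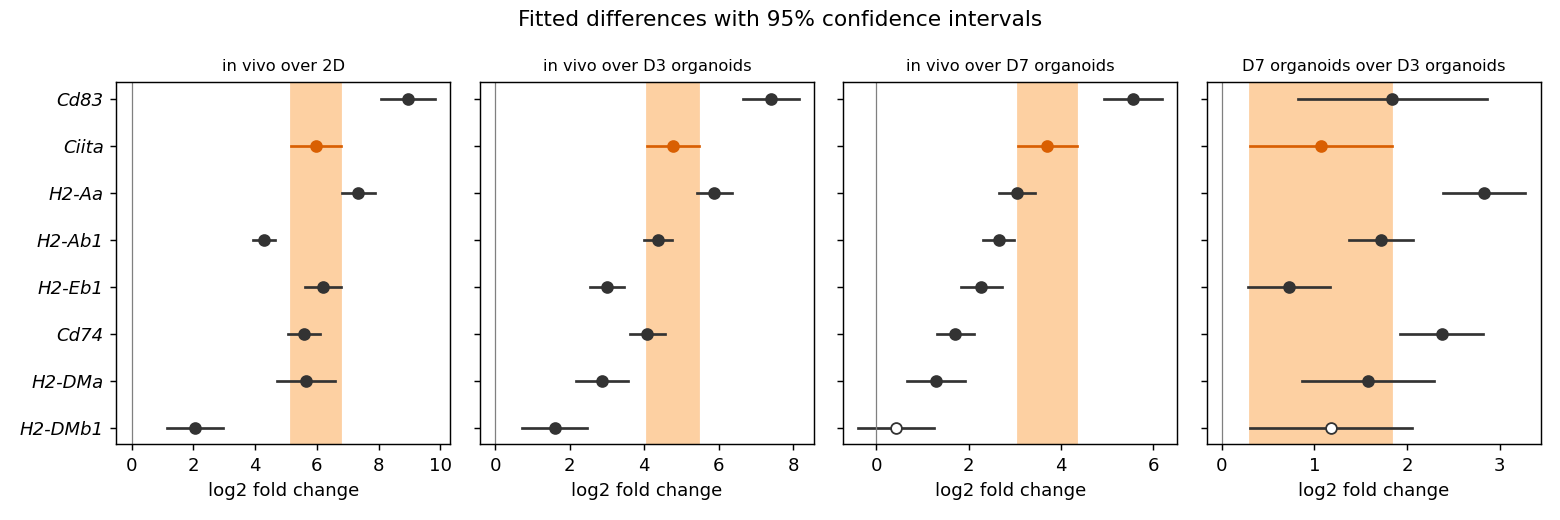
Log2 fold changes (horizontal axis) with 95% intervals of the 8 tested members (vertical axis) in 4 comparisons, with *Ciita* in orange and its interval as a band. Filled points passed the threshold of 0.05. In the *in vivo* over D7 panel *H2-Aa* lies at the left edge of the band, the points of *H2-Ab1*, *H2-Eb1*, *Cd74*, *H2-DMa* and *H2-DMb1* lie left of the band, and *Cd83* lies right of it.

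To ask whether *Ciita* followed its targets, the log2 ratio of the *Ciita* count to the count of each of 7 targets was taken within each library, which removes library size. Equal fold changes of *Ciita* and target keep this ratio level over the groups. For most genes it was not level: over 14440 other genes, the ratio to *Ciita* differed between the 4 groups with an exact permutation p of at most 0.05 in 78.8%. *H2-Oa*, with 0 counts in 2D and D3 organoids, has a ratio there that only the pseudocount of 0.5 counts sets, so its test is not read here. Among the other 6 targets 2 did so, *H2-Aa* (exact permutation p = 0.0286) and *H2-DMb1* (exact permutation p = 0.0476). The p-values are unadjusted over 7 ratios that all share *Ciita*, and 0.00952 is the smallest that 4 groups of 2 can give.

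The other 4 targets gave exact permutation p-values of 0.0762 for *H2-Ab1*, 0.114 for *H2-DMa*, 0.229 for *H2-Eb1* and 0.295 for *Cd74*. These do not show that the ratio was level, since the 2D libraries, with 13 and 4 *Ciita* counts, spread widely. Without 2D replicate 1 the p was 0.00952 for *H2-Ab1* and 0.0190 for *Cd74*. Without 2D replicate 2 it was 0.0190 for *H2-Eb1*, 0.0381 for *H2-DMa*, 0.00952 for *Cd74* and 0.0952 for *H2-DMb1*. The p for *H2-DMb1* was 0.0762 without D7 replicate 1 or 2, and that for *H2-Aa* was 0.0571 without *in vivo* replicate 1 or 2.

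The ratio of *Ciita* to *H2-Aa* was -2.37 and -2.45 *in vivo*, -0.86 and -1.35 in 2D, -1.25 and -1.32 at D3, and -3.47 and -2.67 at D7. The 2D and D3 libraries lay above the *in vivo* libraries and the D7 libraries below them, so *H2-Aa* had lost more than *Ciita* in 2D and at D3 and had regained more by D7. Other targets differed. Less its *in vivo* mean, the D3 ratio was 1.12 for *H2-Aa*, -0.38 for *H2-Ab1* and -0.66 for *Cd74*. It was -1.75 for *H2-Eb1*, -1.83 for *H2-DMa* and -3.14 for *H2-DMb1*. In 2D the shift was 1.30 for *H2-Aa*, 0.08 for *H2-Eb1* and -0.50 for *Cd74*. For *H2-DMa*, *H2-Ab1* and *H2-DMb1* it was -0.60, -1.83 and -4.06 there. The ratio of *Ciita* to *Cd74* was -1.50 and -1.73 *in vivo*, -0.97 and -3.27 in 2D, -2.10 and -2.45 at D3, and -3.83 and -3.39 at D7. Here the 2D libraries bracketed all *in vivo* and D3 libraries, and the D7 libraries were below every other.

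In D7 organoids the ratio of all 7 targets was below the *in vivo* libraries without overlap, which was also true of 96.5% of genes, since *Ciita* itself was 13.1-fold lower. The shift was smaller for each target than the median shift of -3.75 over all genes: it was -0.66 for *H2-Aa*, -1.06 for *H2-Ab1*, -1.13 for *H2-Oa*, -1.44 for *H2-Eb1*, -1.99 for *Cd74*, -2.42 for *H2-DMa* and -3.31 for *H2-DMb1*. From D3 to D7 the ratio fell without overlap for 3 of the 6 targets with counts in every library, *H2-Aa*, *H2-Ab1* and *Cd74*, and for 5.08% of all genes. The median shift of all genes between these days was 0.96, against -1.79 for *H2-Aa*, -0.68 for *H2-Ab1* and -1.33 for *Cd74*. For these 3 genes the D7 gain exceeded that of *Ciita*, although a comparison of 2 against 2 libraries cannot reach an exact p below 0.333.

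**Figure D4:**
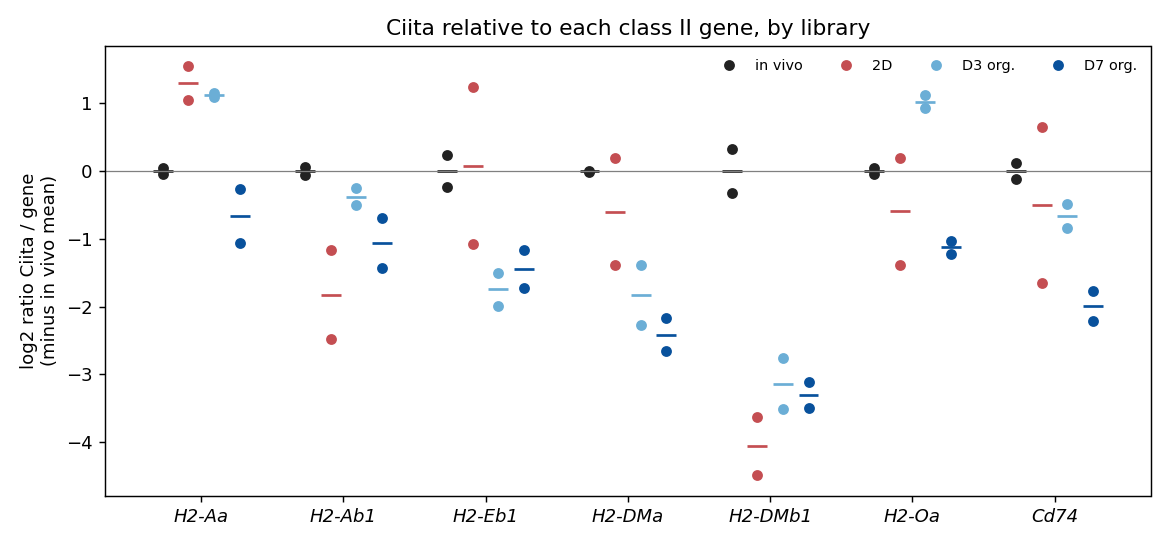
Log2 ratio of the *Ciita* count to the count of each target, less its *in vivo* mean (vertical axis), by target (horizontal axis). Points are libraries and short lines are group means. The 2D and D3 points of *H2-Oa* rest on 0 counts and the pseudocount. All D7 points lie below 0, and the 2D points spread most for *H2-Eb1* and *Cd74*.

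By the root mean square difference of log2 CPM centred on each gene's mean, taken over the 8 libraries, the 5 genes most like *Ciita* among 14465 were *Spmip8* (0.37), *Cd274* (0.42), *Itgb7* (0.54), *Grp* (0.55) and *Olfm4* (0.58). *Cd274*, which encodes the checkpoint ligand PD-L1, had mean levels of 117 CPM *in vivo*, 2.01 in 2D, 3.65 at D3 and 13.6 at D7. Of the members, *H2-Ab1* ranked 23 (0.71), *H2-Aa* 55 (0.87), *Cd74* 76 (0.91), *Cd83* 90 (0.95), *H2-Eb1* 115 (0.999), *H2-DMa* 124 (1.02) and *H2-DMb1* 634 (1.54). The points share libraries and the *in vivo* to culture contrast, and no test was made on this measure.

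Of the 7 listed genes of the promoter complex (*Rfx5*, *Rfxap*, *Rfxank*, *Nfya*, *Nfyb*, *Nfyc* and *Creb1*), 0 passed edgeR's test between *in vivo* TECs and D3 organoids, where 14% of all genes were higher *in vivo*, though 5 had an unadjusted p under 0.05. *Nfya*, the only 1 of the 7 that passed over D7 organoids (16.8% of all genes higher), was higher *in vivo* by 1.05 (SE 0.36, adjusted p = 0.0313 by edgeR). Against 2D, 4 of 7 were higher *in vivo* (21.7% of all genes), with *Rfxank* furthest apart at 1.31 (SE 0.42, adjusted p = 0.0193), and the list's median difference was 0.65 there, 0.37 over D3 and 0.11 over D7. *Rfxank*, which encodes a subunit of RFX, was at 6.42 and 9.0 CPM *in vivo*, 2.90 and 3.33 in 2D, 10.3 and 9.19 at D3, and 9.15 and 9.46 at D7. The organoid libraries were all above both 2D libraries, and D3 over 2D was 1.64 (SE 0.42, adjusted p = 0.00504 by edgeR), while *Ciita* at D3 was at 3.62% of its *in vivo* mean.

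Interferon gamma is the best known inducer of *Ciita*, and IRF1 is 1 of the transcription factors of that route. *Irf1* was at 184 and 161 CPM *in vivo* and between 25.8 and 45.7 CPM in the cultures, with a D7 over D3 difference of 0.58 (SE 0.19, adjusted p = 0.0409). *Socs1*, a feedback inhibitor of the same route, was lower in D7 organoids than *in vivo* by a log2 difference of 4.38 (SE 0.60, adjusted p = 2.47e-05).

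Over the 8 listed genes of that route, 2 were higher *in vivo* than in 2D (21.7% of all genes) and 1 was lower (2885 of 14504 genes). *In vivo* levels were higher for 6 than in D3 organoids (14%) and for 4 than in D7 organoids (16.8%). Against 2D, 4 of 8 were lower in D3 organoids (*Ifngr1*, *Ifngr2*, *Jak1* and *Jak2*), as were 2766 of 14504 tested genes. In D7 organoids 4 of 8 were lower than in 2D (*Ifngr1*, *Ifngr2*, *Jak2* and *Socs1*), as were 3063 of 14504. None of the 8 was called higher in either comparison (19.3% and 24.4% of all genes were), with adjusted p of *Irf1* 0.377 and 0.152 by edgeR. From D3 to D7, 3 of 8 rose (10.9% of all genes), *Ifngr1* (0.67), *Irf1* (0.58) and *Irf2* (0.73), and the other 5 did not pass.

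*Marchf8*, the ligase that removes class II from the surface, was higher in every culture than *in vivo*. It was at 8.68 and 7.45 CPM *in vivo*, 27.4 and 36.3 in 2D, 20.9 and 22.2 at D3, and 31.7 and 37.6 at D7. Every culture library was above both *in vivo* libraries, and the *in vivo* over D7 difference was -2.10 on the log2 scale (SE 0.26, adjusted p = 6.76e-06 by edgeR). From D3 to D7 *Marchf8* rose by 0.68 (SE 0.23, adjusted p = 0.0488), the direction that 7 of 8 members took, and D7 organoids and 2D were not called apart (0.12, adjusted p = 0.709). *Cd83*, which opposes its action on class II, was lower in D7 organoids than *in vivo* by a log2 difference of 5.56, as given above. *Marchf1*, the related ligase, had 0 counts in all libraries.

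**Figure D5:**
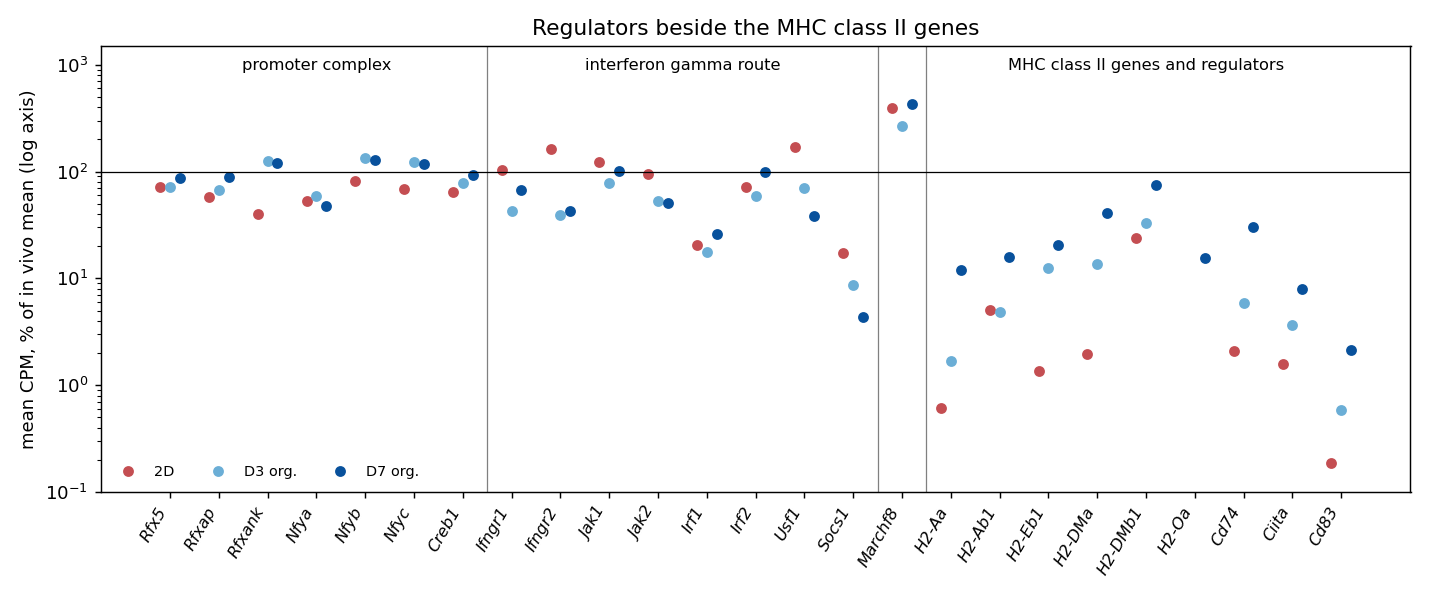
Mean CPM in 2D, D3 and D7 as a percent of the *in vivo* mean, on a log axis, for the promoter complex, the interferon gamma route, *Marchf8* and the 9 members. The horizontal line marks 100%, and groups with 0 counts are not drawn. The promoter complex lies between 40.4% and 134%, and *Marchf8* above 100%.

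Among enzymes that prepare class II peptides, *Ctsl* and *Prss16* of the cortical pathway were lower in culture and rose between D3 and D7. *Prss16*, a thymus-specific serine protease, averaged 2866 CPM *in vivo*, 16.3 in 2D, 42.7 at D3 and 383 at D7, and *Ctsl*, which encodes cathepsin L, averaged 2870.1, 662, 127 and 263 CPM in the same order. *Ctsd*, a general lysosomal protease, was higher in D7 organoids than *in vivo* by a log2 difference of 2.05. The 7 genes of this list were thus split, with 5 higher (16.8% of all genes) and 2 lower (2606 of 14504 genes) *in vivo* than at D7. *Foxn1*, the transcription factor of TEC identity, stood at 29.3% of its *in vivo* mean at D7 and at 3.70% at D3.

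Of 6 tested genes of the class I pathway, 3 were higher *in vivo* than in 2D (*B2m*, *Tap1* and *Tapbp*) against 21.7% of all genes. *In vivo* levels were higher for 5 than in D3 organoids (14%) and for 5 than in D7 organoids (16.8%). *Tap1*, a peptide transporter subunit, averaged 66.8 CPM *in vivo*, 9.17 in 2D, 13.7 at D3 and 25.7 at D7, which is the order of the class II sum. *B2m*, the light chain of class I, averaged 483, 317, 96.8 and 92.0 CPM, and *H2-K1*, a class I heavy chain, 175, 208, 82.2 and 58.1 CPM. Between *in vivo* and 2D *H2-K1* was not called (-0.25, SE 0.17, adjusted p = 0.265 by edgeR). D7 organoids were below 2D in 4 of the 6, as they were in 3063 of 14504 tested genes. Among the 4 was *H2-K1*, by a log2 difference of 1.84 (SE 0.18, adjusted p = 3.73e-07 by edgeR). *Tap1* and *Tapbp* were above 2D (24.4% of all genes), where 8 of 8 class II members were. From D3 to D7, *Tap1* and *Tapbp* rose (10.9% of all genes) and *H2-D1* fell (1436 of 14504 genes).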

How the data were processed

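RNA of the 8 libraries was measured by QuantSeq 3′ sequencing. The authors aligned reads to GRCm39 with STAR and deposited, for each library, raw counts of reads per Ensembl gene, with no normalization or filter, and per the labels used R 4.1.2, edgeR and limma afterwards. The sources used here do not give the annotation release, the strand setting or how multi-mapping reads were handled. Of 56923 gene rows, 56236 were matched by identifier to GENCODE vM39 for symbols and positions and 687 were not.

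Library totals of 5084715 to 7612532 counts were scaled by TMM factors of 0.880 to 1.09. A gene was tested if it reached 1 CPM in 3 or more libraries, which 14504 genes did. The quasi-likelihood test of edgeR 4.0.16 (R 4.3.3) was run on all groups in 1 model, with p-values adjusted by Benjamini-Hochberg over these genes and a threshold of 0.05. Replicates differed by 6.82 to 8.70 times sampling noise (chi-square per degree of freedom), so none was a repeat deposit. Ratios of *Ciita* to a target used a pseudocount of 0.5 counts and a two-sided exact permutation test over 2520 assignments. Folds against groups at 0 used a floor of 3 counts per library, and counting intervals are 95% and cover counting error only. Limma-voom (limma 3.58.1), DESeq2 1.42.0, other scalings and filters, a replicate block and each library left out were run as alternatives, and the procedure was tested on simulated counts. Promoter letters were read from GRCm39 at the start of the Ensembl canonical transcript. The ratios used Python 3.11.15 with pandas 2.3.3.

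The 9 members were all named, with every gene of the lists for other class II genes, the promoter complex, the interferon gamma route and turnover open to naming, up to 3 of the most abundant genes of each other list, defining markers at 0 and the 5 genes most like *Ciita*. The members and all lists were chosen with earlier results of these data known. *Foxn1*, *Epcam*, *Tap1*, *Tapbp*, *Zbtb46*, *Cd79b* and *Ms4a1* were named outside that rule, after their values were seen. So were *Lum*, *Col3a1*, *Pdgfra*, *Pdgfrb*, *Itgam*, *Tyrobp*, *Cd68* and *Fcer1g*. Replicate numbers were not taken to pair libraries, since the labels tie them to no shared animal or day and deviations of same-numbered libraries correlated at 0.03 to 0.13 over 14504 genes. Some items are not reported here.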

Additional observations from a re-analysis of the deposited data

How the results depend on the processing

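Of the 762 refits of a member's fold change, 729 kept direction and side of the threshold. Signs turned for 2 differences that did not pass, both of D3 organoids over 2D: *H2-Ab1* became 0.18 without normalization beyond library size and ranged from -0.21 to 0.033 over libraries left out (positive without 2D replicate 1), and *H2-DMb1* ranged from -0.015, without D3 replicate 1, to 0.86. Scaling by library size alone moved the median of all genes in comparisons with 2D to between 0.23 and 0.31. *Ciita* was called between D3 and 2D without normalization (1.45), with DESeq2 (1.20), with no filter (1.22) and with a mean of at least 10 CPM (1.22). The numbers of members called stayed within 1.5 times under every alternative except for D7 over D3 organoids, where leaving out a library gave 4 to 7. Over libraries left out, exact permutation p ranged from 0.00952 to 0.0571 for the *Ciita* ratio to *H2-Aa*, 0.00952 to 0.267 for *H2-Ab1* and *H2-Oa*, 0.0190 to 0.429 for *H2-Eb1*, 0.0381 to 0.257 for *H2-DMa*, 0.0286 to 0.0952 for *H2-DMb1* and 0.00952 to 0.600 for *Cd74*. A pseudocount of 2 counts gave 0.00952 for *H2-Oa*, whose values rest on the pseudocount in 4 libraries. The causes were not tested. With the replicate block, *H2-DMb1* passed between D7 and D3 organoids (1.18, adjusted p = 0.0435 by edgeR), which made that count 8, and no other member call changed. Depth limits *Ciita*, *H2-DMa*, *Cd83* and *H2-Oa*, with 17, 8, 3 and 0 counts over both 2D libraries.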
